A study of Mus musculus with 9 samples.

Results

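Cytokine receptor genes were examined in sorted B cells of the mouse spleen. The 10 genes were Il2ra, Il2rb, Il2rg, Il4ra, Il5ra, Il6ra, Il10ra, Il21r, Ifngr1 and Ifngr2, and all 10 were found by symbol among 24346 genes. They form a receptor family selected on expression values of these same libraries, with Il2rb, the gene of the interleukin-2 receptor beta chain, as the gene in view for its level in ABCs. The comparison of ABCs with FO B cells is therefore a description for these genes and carries no p-value. FO B cells of the 2 ages were compared with a test.

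Cells came from wild-type C57BL/6 mice with no transgene, deletion or treatment. FO B (Young) denotes follicular (FO) B cells of 8-week-old mice, FO B (Aged) the same gate in 50-week-old mice, and ABCs (Aged) the age-associated B cells of 50-week-old mice, with 3 libraries in each of the 3 groups. The gates included B220hiCD43-CD23+CD21lo for FO B cells and B220hiCD43-CD23-CD21loCD11b+CD11c+ for ABCs, so young mice contributed no ABC library and age could not be compared within ABCs. Levels are FPKM, a read level scaled to transcript length and library depth, which allows genes of different length to be compared. A legend of the study gives 3 mice per group, and the labels do not say whether any aged mouse gave both cell types.

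Type I cytokine receptors, which include most interleukin receptors, are assembled from a chain that recognises one ligand and a chain shared with other receptors. Receptors for interleukin-10 and the interferons belong to the type II family. Neither family has kinase activity of its own, and ligand binding brings together Janus kinases (JAKs), which phosphorylate STAT transcription factors. In B cells, interleukin-4 and interleukin-21 from helper T cells and interferon gamma are known to guide activation, class switching and plasma cell formation, while interleukin-5 is known for its effect on B-1 cells.

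The libraries held about 7320000 to 8900000 mapped reads, estimated from the FPKM value that 1 read was worth. Transcripts for CD23 and CD11c followed the gates. Fcer2a, which encodes CD23, was at 0.463 to 6.95 FPKM in ABCs, against 697 to 728 FPKM in FO B (Aged). Itgax, which encodes CD11c, was at 45.0 to 59.7 FPKM against 0.0322 to 0.206 FPKM. Transcripts for CD43 and CD21 differed, although both gates were CD43- and CD21lo. Spn, which encodes CD43, had a mean of 67.8 FPKM in ABCs, against 3.05 FPKM in FO B (Aged). For Cr2, which encodes CD21, the mean was 4.69 FPKM against 150.8 FPKM. ABC replicate 3 stood somewhat apart, with a Pearson's r of log2(FPKM + 1) over genes of 0.964 and 0.958 with ABC replicates 1 and 2, which correlated with each other at 0.980. RNA was measured per pool of sorted cells, so fewer cells carrying a transcript and less of it per cell cannot be told apart.

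Fitted differences below are log2 fold changes of FPKM + 1 from limma, with standard errors (SE) and n = 3 libraries in each group. A gene was fitted where its mean over the 6 libraries was at least 1 FPKM, and "called" means a false discovery rate (FDR) under 0.05 over all genes fitted. Of the 10 receptor genes, 9 were fitted for ABCs against FO B (Aged), and Il2rb was among them through its ABC level alone. Il2ra was below this level in all 9 libraries. Between ABCs and FO B (Aged), 2 receptor genes were called higher and 6 lower, beside 35.9% of all 10412 genes fitted, 19.4% called higher and 16.5% called lower. Against FO B (Young) the counts were also 2 and 6, beside 40.7% of all genes, 21.6% higher and 19.1% lower, with the same ABC libraries. The libraries of ABCs and FO B (Aged) did not overlap for 8 of the 9, beside 52.6% of all genes. The median difference was -0.35 over the 9 receptor genes and -0.01 over all genes. The count of 8 fell to 4 without FO B (Aged) replicate 1 and to 5 without FO B (Aged) replicate 2, and in the comparison with young mice to 4 without FO B (Young) replicate 2. Of all genes, 2550 of 10429 and 2906 of 10436 were called in the fits without FO B (Aged) replicates 1 and 2, in place of 3739 of 10412. These counts describe genes that were selected on the same values, and nothing is read from them.

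**Figure D1:**
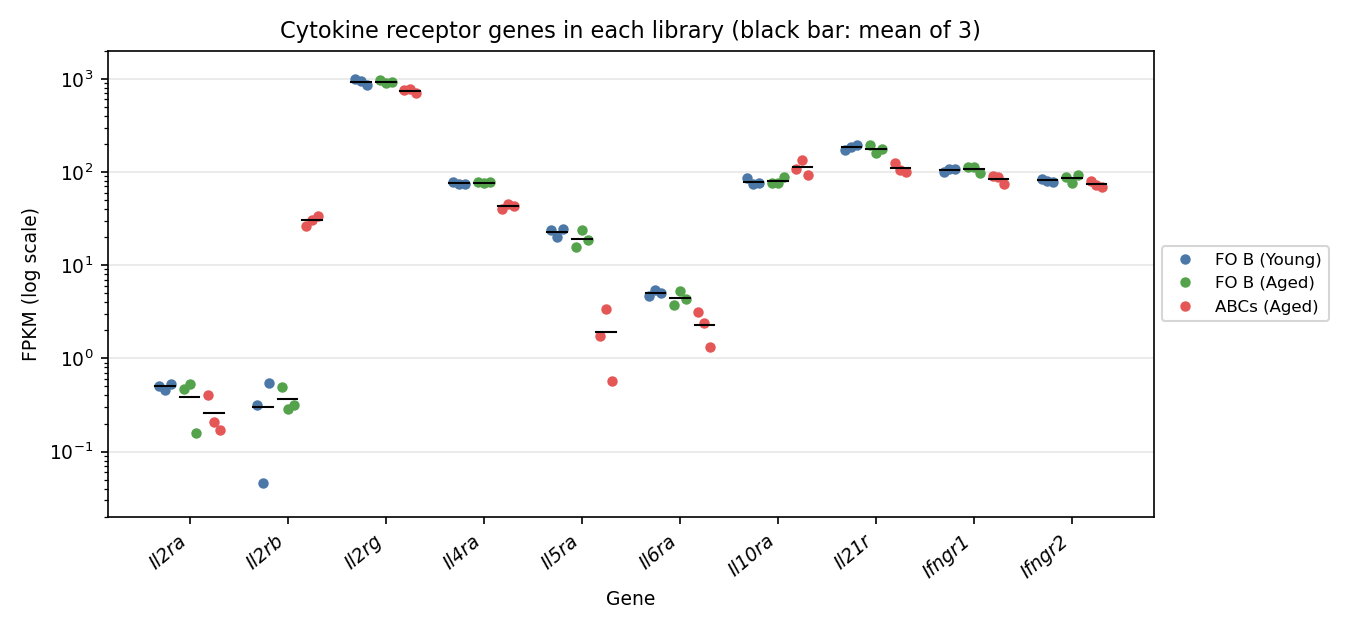
FPKM (log scale) of the 10 cytokine receptor genes in each of the 9 libraries, coloured by group, with the mean of 3 libraries as a black bar. Il2rb rose from below 1 FPKM in the 6 FO B libraries to between 26.4 and 34.0 FPKM in ABCs, and Il5ra was lower in each ABC library than in any FO B library.

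The interleukin-2 receptor is built from an alpha chain (Il2ra, CD25), a beta chain (Il2rb, CD122) and the common gamma chain (Il2rg, CD132). The beta and gamma chains together carry the signal of interleukin-2 and interleukin-15, and the alpha chain raises the affinity for interleukin-2. Il2rb occupies positions 78479256 to 78495271 of chromosome 15 (GRCm38, minus strand). It was at 26.4, 30.9 and 34.0 FPKM in the ABC libraries. In FO B (Aged) it was at 0.494, 0.285 and 0.317 FPKM, and in FO B (Young) at 0.317, 0.0458 and 0.546 FPKM. The ABC libraries lay far above all FO B libraries, and the FO B groups overlapped each other. By whole reads, the ABC libraries held 539, 697 and 700 reads of Il2rb, against 1 to 12 reads in any FO B library. The mean in ABCs, 30.5 ± 3.83 FPKM (SD, n = 3), was 83.4 times that in FO B (Aged), 0.365 ± 0.113 FPKM (SD, n = 3). The fitted difference was 4.52 (SE 0.13, 95% interval 4.21 to 4.84), which understates the ratio because 1 FPKM was added to low values. Against FO B (Young) it was 4.60 (SE 0.17), with the same ABC libraries.

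The other chains of this receptor had different profiles. Il2ra was low in all groups, at 0.404, 0.209 and 0.172 FPKM in ABCs, at 0.466, 0.527 and 0.160 FPKM in FO B (Aged) and at 0.506, 0.458 and 0.536 FPKM in FO B (Young). Its groups overlapped in aged mice, and it rested on 6 to 22 reads in a library. Il2rg had the highest level of the 10 genes in each group, at 761, 772 and 699 FPKM in ABCs, at 966, 896 and 928 FPKM in FO B (Aged) and at 986, 955 and 858 FPKM in FO B (Young). Each ABC library was below each FO B library, with a fitted difference from FO B (Aged) of -0.32 (SE 0.07). Il2rb FPKM was 0.0390% ± 0.0106 (SD, n = 3) of Il2rg FPKM in FO B (Aged) and at 4.12% ± 0.705 (SD, n = 3) in ABCs, so gamma chain transcripts stayed far above those of the beta chain. Il15ra, the private alpha chain of the interleukin-15 receptor, was at 8.74, 10.3 and 9.65 FPKM in ABCs, against 4.61, 7.83 and 7.16 FPKM in FO B (Aged). Its difference of 0.51 did not pass the test (limma FDR = 0.0622), although the libraries did not overlap.

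Il2rb is also a receptor chain of NK cells and T cells, so their markers were read beside it. Of 10 NK cell markers, 7 were below 1 FPKM in all 3 ABC libraries, among them Ncr1 at 0 to 0.0882 FPKM and Eomes at 0 to 0.106 FPKM. Gzmb and Klre1 were at 0 FPKM in all 9 libraries. The summed NK cell markers ran from 29.6 to 38.2 FPKM in ABCs, against from 0.789 to 1.71 FPKM in FO B (Aged), with Prf1 (perforin, a pore-forming protein) alone at 25.5, 24.1 and 38.0 FPKM in ABCs. Klrd1, which encodes CD94, was at 2.99, 3.21 and 0 FPKM in ABCs and at most 0.517 FPKM in FO B (Aged). In FO B (Young), Klrd1 was at 1.38, 0.174 and 1.73 FPKM, which overlapped ABCs. Nkg7, a cytotoxic granule gene, was at 2.03, 1.84 and 0.202 FPKM in ABCs and at most 0.187 FPKM in FO B (Aged). Of 12 T cell markers, 11 were below 1 FPKM in all 3 ABC libraries, with Cd3e at 0 to 0.0996 FPKM. Their sum ran from 5.20 to 39.4 FPKM in ABCs, against 1.44 to 2.98 FPKM in FO B (Aged), and Cd3g made up 4.93 to 37.0 FPKM of it in ABCs. In ABC replicate 3, Il2rb and Prf1 had their highest levels, and Cd3g, Klrd1 and Nkg7 their lowest. The part of NK cells or T cells in the Il2rb level was not tested. Cd79a, which encodes a signalling chain of the B cell receptor, was at 2462 to 3562 FPKM in ABCs and 2991 to 3317 FPKM in FO B (Aged).

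The genes whose levels most resembled those of Il2rb were ranked by Pearson's r of log2(FPKM + 1) over the 9 libraries, among 10374 genes. The first 5 were Bhlhe41 (0.998), a transcriptional repressor of the clock gene family, Sspn (0.998), which encodes sarcospan, Sox5 (0.998), a transcription factor, Gng12 (0.997), a G protein gamma subunit, and Zfyve21 (0.997). All 5 were low in both FO B groups and high in ABCs: Bhlhe41 was at 28.7 ± 3.11 FPKM (SD, n = 3) in ABCs, against 1.37 ± 0.0621 FPKM (SD, n = 3) in FO B (Aged). With libraries in 2 levels, such an r describes this step between cell types more than covariation within a group.

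Il5ra encodes the ligand-binding chain of the interleukin-5 receptor and had the largest decrease among the receptor genes. It was at 1.75, 3.40 and 0.578 FPKM in ABCs, at 15.8, 23.7 and 18.5 FPKM in FO B (Aged) and at 23.7, 20.3 and 24.7 FPKM in FO B (Young). Even the highest ABC library was well under the lowest FO B library. The difference from FO B (Aged) was -2.91 (SE 0.35, 95% interval -3.74 to -2.08), with 48, 103 and 16 reads in ABCs against 429, 784 and 549. Against FO B (Young) it was -3.16 (SE 0.34). The study set thresholds of 2.3 for the absolute log2 fold change and 0.01 for the FDR. By these, Il2rb and Il5ra were the 2 receptor genes called, beside 1.92% of all genes fitted, again as a description of genes selected on these values.

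The ABC libraries differed from one another in Il5ra, at 9.06%, 17.6% and 3.0% of the FO B (Aged) mean in replicates 1, 2 and 3. The transcripts of the CD23 and CD21 gates took the same order of libraries. Fcer2a was at 0.582%, 0.974% and 0.0650% of its FO B (Aged) mean, and Cr2, which encodes CD21, at 3.27%, 5.56% and 0.494%. In each ABC library the Il5ra share exceeded both. The part of residual FO B cells in the Il5ra level of ABCs was not tested. Csf2rb, the signalling chain that interleukin-5, interleukin-3 and GM-CSF receptors share, also separated ABC replicate 3 from the others, at 12.3, 13.2 and 2.04 FPKM, against 1.86, 3.06 and 1.68 FPKM in FO B (Aged). Its difference of 1.40 was not called (limma FDR = 0.0933). Without ABC replicate 3 it was 2.13 (limma FDR = 0.000246). Csf2rb2 is a near-identical copy of this gene, so the assignment of reads to Csf2rb is uncertain, although Csf2rb2 was at most 0.236 FPKM in any library.

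**Figure D2:**
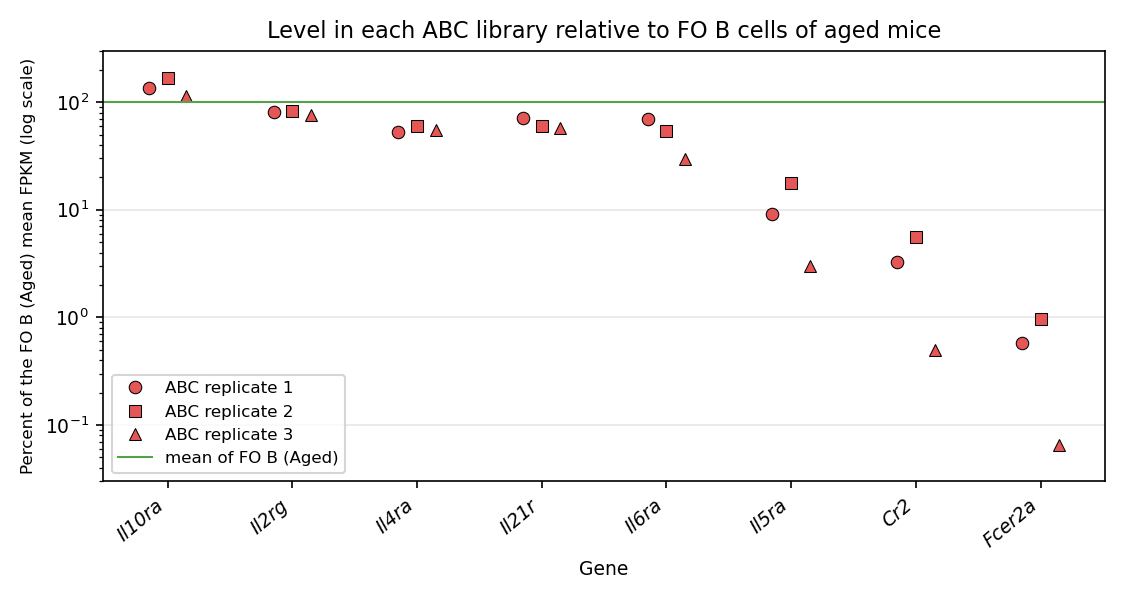
Level of 6 receptor genes and of the sort markers Cr2 and Fcer2a in each ABC library as a percent of the FO B (Aged) mean FPKM (log scale), with a line at the FO B (Aged) mean. Il5ra, Cr2 and Fcer2a were highest in ABC replicate 2 and lowest in replicate 3, and Il4ra lay between 52.4% and 59.6% in the 3 libraries.

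Il5ra is a known receptor of B-1 cells, and the CD43- gate leaves out many of them. Against FO B (Aged), all 7 genes of a B-1 cell list were higher in ABCs (limma FDR under 0.05), beside 19.4% of all genes. Their sums were 844 to 1001 FPKM in ABCs and 433 to 496 FPKM in FO B (Aged). Plac8, which rose by 0.46, made up 576 to 684 FPKM and 420 to 478 FPKM of these sums. Zbtb32 rose by 5.49 (limma FDR = 2.28e-05), Bhlhe41 by 3.64 (limma FDR = 4.14e-06) and Spn, the gene of CD43 itself, by 4.06 (limma FDR = 1.32e-05). Cd5, the classical marker of B-1a cells, was at 0.656, 2.43 and 2.86 FPKM in ABCs, against a mean of 0.334 FPKM in FO B (Aged). Ctla4, an inhibitory receptor, had means of 2.14 and 0.0978 FPKM. Cd5 and Ctla4 reached the filter through their ABC level alone, so their direction among the 7 was fixed by the filter. The call of Cd5 was lost when any 1 FO B (Aged) replicate was left out, and that of Ctla4 without FO B (Aged) replicate 1 or 3. Il5ra thus took the opposite direction to these 7 genes.

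Il4ra and Il21r are adjacent on chromosome 7, where Il4ra spans 125552120 to 125579474 and Il21r spans 125603429 to 125633570, both on the plus strand, with 23954 bases and 0 annotated genes between them. Il4ra encodes the chain that binds interleukin-4, and Il21r the one that binds interleukin-21, and each pairs with the common gamma chain. Il4ra was at 40.3, 45.8 and 42.7 FPKM in ABCs, at 77.7, 75.8 and 77.3 FPKM in FO B (Aged) and at 78.9, 73.7 and 73.5 FPKM in FO B (Young). The ABC mean was 55.9% of the FO B (Aged) mean, with no overlap and a difference of -0.83 (SE 0.07). Il21r was at 125, 104.7 and 100.8 FPKM in ABCs, at 193, 159 and 175 FPKM in FO B (Aged) and at 173, 185 and 197 FPKM in FO B (Young). The ABC mean was 62.8% of the FO B (Aged) mean, again with no overlap, and the difference was -0.67 (SE 0.11). Relative to Il2rg in the same library, Il4ra was 8.28% ± 0.215 (SD, n = 3) in FO B (Aged) and 5.78% ± 0.426 (SD, n = 3) in ABCs. For Il21r the values were 18.9% ± 1.1 (SD, n = 3) and 14.8% ± 1.5 (SD, n = 3).

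Promoter sequences from RefSeq on GRCm38.p6 were matched for 8 of the 10 genes, all but Il2rb and Il10ra. Those of Il5ra, the gene with the largest decrease, and Il21r, one of the neighbouring pair, are shown to set their base composition side by side, as the 250 bases before the gene start read along the gene's strand, with CpG dinucleotides in capitals. The Il5ra stretch is chr6:106749038-106749287 on the minus strand, and the Il21r stretch is chr7:125603179-125603428 on the plus strand.
Il5ra: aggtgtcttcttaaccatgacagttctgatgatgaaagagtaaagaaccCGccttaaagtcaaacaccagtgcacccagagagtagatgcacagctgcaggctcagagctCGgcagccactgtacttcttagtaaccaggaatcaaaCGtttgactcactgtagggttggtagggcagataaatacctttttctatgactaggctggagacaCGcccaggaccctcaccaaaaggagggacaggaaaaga
Il21r: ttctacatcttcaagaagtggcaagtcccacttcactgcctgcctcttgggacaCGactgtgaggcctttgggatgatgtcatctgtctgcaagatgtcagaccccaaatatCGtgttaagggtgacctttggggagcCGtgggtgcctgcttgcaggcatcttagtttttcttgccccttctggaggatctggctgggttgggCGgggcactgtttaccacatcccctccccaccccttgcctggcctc
Each of these stretches holds 4 CpG dinucleotides. Over the whole promoter window of 300 bases, the count was 4 for Il5ra and 7 for Il21r, against 25 for Il4ra, 25 for Il6ra, 31 for Ifngr2 and a median of 7 over 32851 promoters. The neighbours Il4ra and Il21r therefore differed in CpG count, although both were lower in ABCs. On either strand, the T-box letters AGGTGTGA, their core GTGTGA and the STAT letters TTCNNNGAA were found in 0 of the 8 windows, and in 1.28%, 14.5% and 8.3% of all promoters. The core lies within the longer T-box motif.

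Il6ra encodes the chain that binds interleukin-6, whose signal passes through the shared chain gp130 (Il6st). Il6ra was at 3.11, 2.39 and 1.31 FPKM in ABCs, at 3.76, 5.29 and 4.34 FPKM in FO B (Aged) and at 4.67, 5.41 and 5.06 FPKM in FO B (Young). The ABC libraries were all below the FO B libraries, on 34 to 80 reads each, and the difference was -0.77 (SE 0.23). Il6ra was not among the genes called in 6 of 15 alternative fits, which changed the pseudocount, filter, scaling, model or libraries. Il6st was at 0.975, 0.988 and 0.922 FPKM in ABCs, against 1.87, 2.08 and 2.42 FPKM in FO B (Aged), a decrease of 0.67 on the log2 scale. It reached the filter through its FO B (Aged) level alone, so this direction was fixed by the filter. Its call was lost without FO B (Aged) replicate 3. Both genes of this receptor were thus low, and both were lower in ABCs. Il27ra, whose product pairs with gp130 to bind interleukin-27, fell by 0.62 (limma FDR = 0.00145), from 46.9 ± 3.12 to 30.1 ± 1.97 FPKM (SD, n = 3).

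Il10ra and the interferon gamma receptor genes belong to the type II family. Il10ra encodes the ligand-binding chain for interleukin-10, a cytokine that restrains inflammation. It was at 108, 136 and 92.1 FPKM in ABCs, at 76.4, 76.6 and 87.7 FPKM in FO B (Aged) and at 85.6, 74.4 and 77.0 FPKM in FO B (Young). All ABC libraries were above the FO B libraries, though replicate 3 only slightly, and the difference was 0.46 (SE 0.14). Its partner Il10rb was nearly level, at 113, 116 and 120 FPKM in ABCs, against 114, 118 and 123 FPKM in FO B (Aged) (difference -0.03, limma FDR = 0.775). The ratio of Il10ra to Il10rb was 67.7% ± 3.10 (SD, n = 3) in FO B (Aged) and 96.3% ± 20.2 (SD, n = 3) in ABCs. Il10ra was not among the genes called in 9 of 16 alternative fits. With quantile normalization Il10ra was no longer called and Ifngr2 was, so that 1 receptor gene was called higher and 7 lower.

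The 2 chains of the interferon gamma receptor stayed close to each other in level. Ifngr1, the ligand-binding chain, was at 89.9, 88.5 and 75.1 FPKM in ABCs, at 113, 113 and 96.6 FPKM in FO B (Aged) and at 101.2, 108 and 106 FPKM in FO B (Young), with a difference of -0.35 (SE 0.10) and no overlap. Ifngr2, which completes the signalling receptor, was at 79.8, 72.2 and 68.6 FPKM in ABCs, at 89.2, 76.3 and 92.0 FPKM in FO B (Aged) and at 84.4, 80.7 and 79.0 FPKM in FO B (Young). Its groups overlapped, and its difference of -0.22 (95% interval -0.44 to 0.0043) was not called. Ifngr1 FPKM was 127% ± 21.8 (SD, n = 3) of Ifngr2 FPKM in FO B (Aged) and at 115% ± 6.81 (SD, n = 3) in ABCs.

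Ranked by mean level, the receptor genes had the same order in both FO B groups, from Il2rg through Il21r, Ifngr1, Ifngr2, Il10ra, Il4ra, Il5ra, Il6ra and Il2ra to Il2rb. The libraries of Ifngr2 and Il10ra, of Il10ra and Il4ra, and of Il2ra and Il2rb overlapped, so these neighbours could not be ordered. In ABCs the order was Il2rg, Il10ra, Il21r, Ifngr1, Ifngr2, Il4ra, Il2rb, Il6ra, Il5ra and Il2ra. There, Il10ra and Il21r overlapped, as did Ifngr1 and Ifngr2, and Il6ra and Il5ra. By mean level, Il2rb moved from the lowest place, not separable from that of Il2ra, to the seventh. Il5ra moved from the seventh to the ninth, not separable from that of Il6ra.

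Age alone was tested within FO B cells. Of the 10 receptor genes, 8 reached a mean of 1 FPKM over these 6 libraries, and 0 of the 8 were called (limma), with 0 at an unadjusted p under 0.05, beside 0.464% of 10122 genes called. Their differences, FO B (Aged) minus FO B (Young), ran from -0.25 for Il5ra (95% interval -0.58 to 0.08, limma FDR = 0.512) to 0.07 for Ifngr2 (95% interval -0.10 to 0.25, limma FDR = 0.758). Il4ra was the most tightly bounded, at 0.03 (95% interval -0.09 to 0.15, limma FDR = 0.868). Il2rg was level, with 930 ± 35.1 and 933 ± 66.7 FPKM (SD, n = 3) in aged and young mice. Exact two-sided permutation tests of the mean FPKM gave p from 0.2 (Il5ra) to 1.0 (Il2rg), where 3 against 3 libraries cannot go below 0.1. The low genes Il2ra and Il2rb gave p = 0.5 and p = 0.9 in the same exact test.

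**Figure D3:**
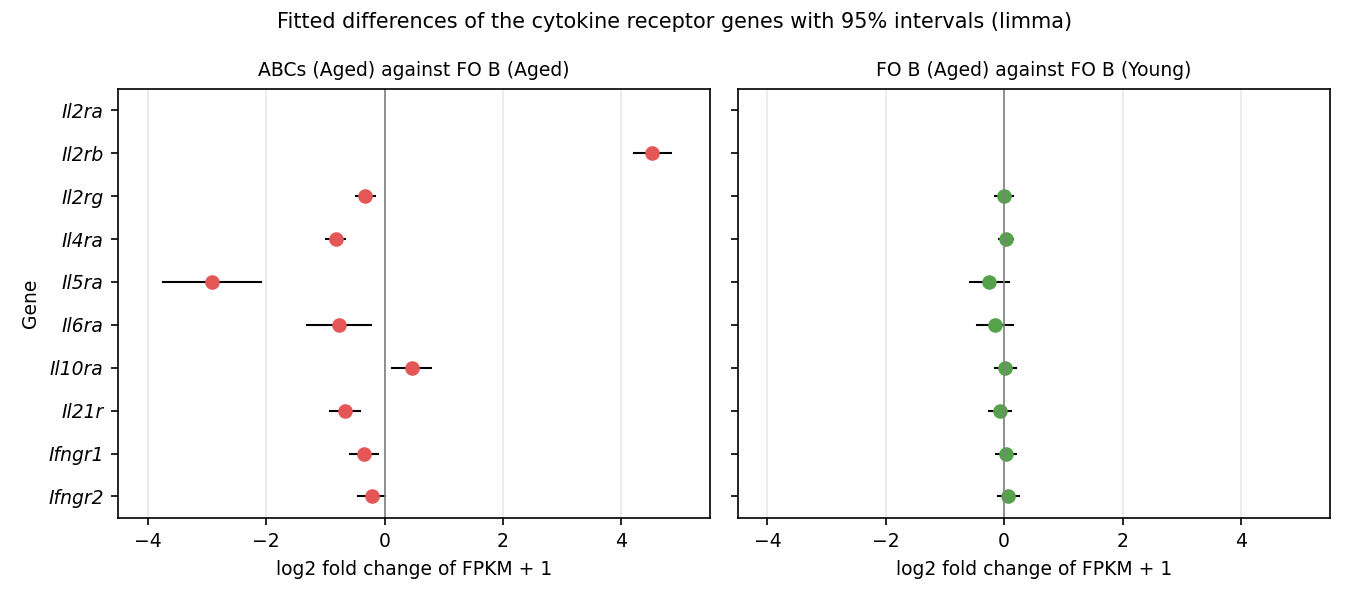
Log2 fold change of FPKM + 1 for the cytokine receptor genes with 95% intervals from limma (n = 3 libraries per group), for ABCs against FO B (Aged) on the left and FO B (Aged) against FO B (Young) on the right. Il2rb (4.52) and Il5ra (-2.91) lie far from 0 on the left, all 8 genes on the right have intervals that include 0, and genes below the level filter have no point.

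Other cytokine receptor genes were read as whole families. Of 62 listed genes of the type I, type II, IL-1 and IL-17, and TGF-beta receptor families, 23 reached the level filter in ABCs and FO B (Aged), of which 7 rose and 5 fell (limma FDR under 0.05), beside 19.4% of all genes higher and 16.5% lower. The median difference was 0.27 over the 23. In 5 of the 12 genes called, one group had a mean below 1 FPKM. Those 5 reached the filter through the other group alone, so their direction was fixed by the filter. Il9r, which pairs with the common gamma chain as Il2rb does, rose by 2.13 (SE 0.19, limma FDR = 0.000283), from 9.83, 9.87 and 8.64 FPKM in FO B (Aged) to 50.4, 54.9 and 32.2 FPKM in ABCs. In FO B (Young) it was at 6.61, 8.47 and 7.95 FPKM. All ABC libraries were above all FO B libraries, and Il9r passed the test in all 16 alternative fits. Its FPKM was 6.12% ± 1.32 (SD, n = 3) of that of Il2rg in ABCs and 1.02% ± 0.0855 (SD, n = 3) in FO B (Aged).

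Other type I chains called higher were at lower levels in ABCs than Il9r, the highest being Csf2ra at 9.45, 14.6 and 10.7 FPKM. Il12rb1, a chain of the interleukin-12 and interleukin-23 receptors, rose by 0.95 (limma FDR = 0.00482), to 3.48, 3.52 and 2.5 FPKM in ABCs from 0.923, 1.21 and 1.31 FPKM. Il3ra, the chain that binds interleukin-3, rose by 1.0 (limma FDR = 0.0225), and Csf2ra, the chain that binds GM-CSF, by 0.87 (limma FDR = 0.0192). Neither call was stable, as Il3ra lost it when any 1 FO B (Aged) replicate, or ABC replicate 1, was left out (limma FDR up to 0.0712). Csf2ra lost it without FO B (Aged) replicate 1 or 3 or without ABC replicate 2 (limma FDR up to 0.0604). Il3ra, Csf2ra and Il5ra are the private partners of Csf2rb, and Il5ra was the only one of these 3 with a lower mean in ABCs than in FO B (Aged). Macrophages also carry GM-CSF receptors, and 11 macrophage and monocyte markers summed to 199 to 240 FPKM in ABCs but 11.4 to 18.6 FPKM in FO B (Aged). Of the 5 that reached the filter, 2 were called higher in ABCs, beside 19.4% of all genes. Adgre1 (F4/80) made up 174 to 222 FPKM of the ABC sums, and Cd68 was at 12.6, 13.1 and 6.38 FPKM in ABCs and 3.15 to 4.70 FPKM in FO B (Aged) (difference 1.13, limma FDR = 0.0155, and up to 0.0591 when either FO B (Aged) replicate 1 or replicate 1 of the ABCs was left out). In contrast, Csf1r, the defining receptor of macrophages, was at most 0.831 FPKM in ABCs, and 6 of the 11 were below 1 FPKM in all 3 ABC libraries. The sums of 6 dendritic cell markers were 4.39 to 7.42 FPKM in ABCs and 2.4 to 4.55 FPKM in FO B (Aged). For 4 neutrophil markers they were at most 0.359 FPKM in ABCs and 0.987 to 21.3 FPKM in FO B (Aged). The part of such cells in these receptor levels was not tested.

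In the TGF-beta receptor family, 2 type I receptors of bone morphogenetic proteins and related ligands went from near 0 to several FPKM. Acvrl1 (ALK1) was at 4.37, 3.52 and 5.84 FPKM in ABCs, against 0.179, 0.571 and 0.368 FPKM in FO B (Aged), a difference of 2.01. Bmpr1a (ALK3) was at 3.53, 2.13 and 6.30 FPKM in ABCs, against 0, 0.0383 and 0.192 FPKM in FO B (Aged), a difference of 2.13. Both reached the filter through their ABC level alone, so a higher level in ABCs was fixed by the filter and is given without a test. Their type II partner Bmpr2 was at most 0.132 FPKM in ABCs. Acvr2a, another type II receptor, was lower by 0.53, but reached the filter through its FO B (Aged) level alone. Its call was lost without FO B (Aged) replicate 2 or 3 or ABC replicate 1 or 2. The receptors for TGF-beta itself were not called: Tgfbr1 differed by -0.35 (limma FDR = 0.0804) and Tgfbr2 by 0.27 (limma FDR = 0.0556).

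Among the remaining families, Ifnlr1, the chain that binds type III interferons, was at 0.865, 2.75 and 3.34 FPKM in ABCs. In FO B (Aged) it was at 0.323, 0.213 and 0.798 FPKM, and in FO B (Young) at 0.414, 1.02 and 0.595 FPKM, which overlapped ABCs. It reached the filter through its ABC level alone, so its higher level is given without a test. Its call was lost when any 1 FO B (Aged) replicate, or ABC replicate 2, was left out. Ifnar1, a chain of the receptor for type I interferons, fell by 0.36 (limma FDR = 0.00920), and Sigirr, a negative regulator of IL-1 family receptors, fell by 0.43 (limma FDR = 0.00437). In FO B cells, 0 of 21 genes of these families were called for age (limma), with 5 at an unadjusted p under 0.05, beside 1298 of 10122 genes at that p.

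**Figure D4:**
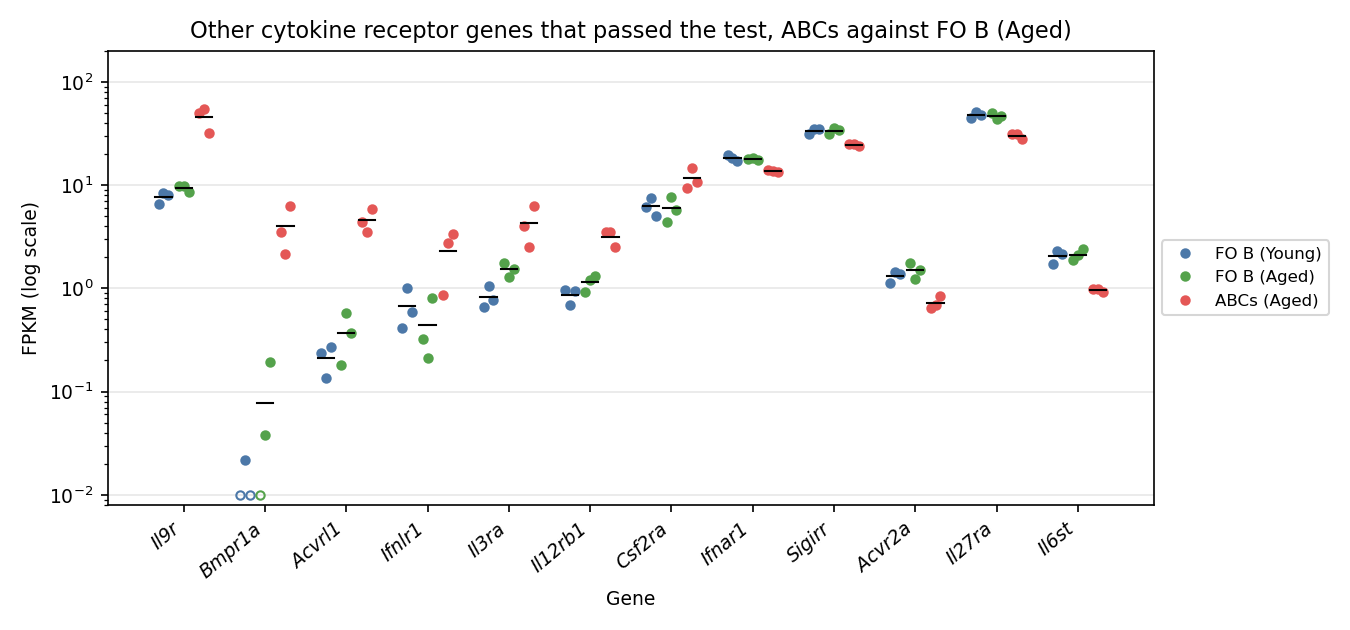
FPKM (log scale) in each library of the 12 other cytokine receptor genes that passed the test between ABCs and FO B (Aged), ordered by log2 fold change, with the mean of 3 libraries as a black bar and open circles at the bottom for libraries listed at 0 FPKM. Il9r had the highest level among the 7 genes that rose, at 32.2 to 54.9 FPKM in ABCs. Of the 12 genes, 5 had a group mean below 1 FPKM, so that their direction was fixed by the level filter.

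Of 12 genes for ligands of these receptors, 3 reached the filter, and each did so through its ABC level alone, so that a higher level in ABCs was fixed by the filter and is given without a test. Il15, a ligand of the beta and gamma chains, was at 2.87, 1.56 and 2.39 FPKM in ABCs, against 0.229, 0.476 and 0.741 FPKM in FO B (Aged). Ifng was at 2.08, 2.77 and 2.31 FPKM in ABCs, against at most 0.407 FPKM in FO B (Aged). Il4 was at 2.5, 2.26 and 5.27 FPKM in ABCs and listed at 0 in all 6 FO B libraries. Il2, the ligand that names the receptor, was at most 0.301 FPKM in any library, and Il21 was listed at 0 in all 9. T cells and NK cells are known sources of Il4 and Ifng, and their marker values stand above.

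Of 11 kinase and STAT genes downstream of the receptors, all 11 reached the filter, with 1 called higher and 1 lower in ABCs, beside the 35.9% of all genes called. Jak2, the kinase bound by the interferon gamma receptor and by Csf2rb, fell by 1.52 (SE 0.26, limma FDR = 0.00406), from 23.7, 29.2 and 27.3 to 10.2, 11.8 and 5.18 FPKM. Tyk2, which serves the interleukin-10 and interleukin-12 receptors among others, rose by 0.77 (SE 0.11, limma FDR = 0.00196), from 13.0, 11.2 and 12.0 to 19.7, 24.4 and 20.0 FPKM. The kinases that bind the beta and gamma chains were not called, with differences of -0.12 for Jak1 (limma FDR = 0.329) and 0.14 for Jak3 (limma FDR = 0.443). Neither were Stat5a (-0.10, limma FDR = 0.656) and Stat5b (-0.03, limma FDR = 0.766), through which interleukin-2 signals, nor Stat6 (-0.10, limma FDR = 0.418), through which interleukin-4 does. Stat4 was at 24.5, 37.4 and 4.19 FPKM in ABCs, against 49.4, 45.0 and 48.3 FPKM in FO B (Aged). Its difference of -1.50 was not called (limma FDR = 0.117), and without ABC replicate 3 it was -0.63 (limma FDR = 0.020).

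Of 12 target genes of these pathways, 10 were tested between ABCs and FO B (Aged), with 2 higher and 2 lower, beside the same 35.9%. Prdm1, 1 of the 2 higher, reached the filter through its ABC level alone, so its higher level was fixed by the filter and is given without a test. Bcl6, the germinal centre repressor that interleukin-4 and interleukin-21 are known to induce, fell by 2.08 (limma FDR = 0.000229), from 31.2 ± 5.69 to 6.62 ± 1.39 FPKM (SD, n = 3). Prdm1, the gene of the plasma cell factor Blimp-1, was at 4.46 ± 1.41 FPKM in ABCs, against 0.379 ± 0.291 FPKM in FO B (Aged) (SD, n = 3). Beside it, 6 plasma cell markers summed to 973 to 1270 FPKM in ABCs and 443 to 471 FPKM in FO B (Aged). Of the 5 tested, 3 were called higher, beside 19.4% of all genes, with Mzb1 at 769 to 1050 FPKM in ABCs. Sdc1, also called, lost its call without FO B (Aged) replicate 1 or 3 (limma FDR up to 0.0523). Jchain lost it without FO B (Aged) replicate 1 or ABC replicate 1 or 2 (limma FDR up to 0.0671). Xbp1 (0.23, limma FDR = 0.0840) and Irf4 (-0.18, limma FDR = 0.490) were not called, and Tnfrsf17 was at most 0.611 FPKM in ABCs. Myc fell by 1.24 (limma FDR = 0.000862), and Ciita, the regulator of MHC class II genes that interferon gamma induces, rose by 0.44 (limma FDR = 0.00623). Cish and Socs2, feedback inhibitors induced through STAT5, were below the filter. Cish was at 0.812, 1.30 and 0.434 FPKM in ABCs, against 0.252, 0.104 and 0.115 FPKM in FO B (Aged), and Socs2 at 0.458, 1.33 and 0.519 FPKM in ABCs, against 0.198, 0.108 and 0 FPKM. The ABC libraries of both lay above those of FO B (Aged), with 2 to 23 reads of Cish in each. They overlapped those of FO B (Young), where Cish was at 0.519, 0.467 and 0.0580 FPKM and Socs2 at 0.242, 0.0611 and 0.486 FPKM. Within FO B cells, 2 of 9 target genes tested were higher with age, beside 0.464% of all genes called. Socs3, a feedback inhibitor of gp130 signalling, was at 16.6, 11.5 and 14.8 FPKM in aged and 3.49, 2.40 and 3.56 FPKM in young mice (limma FDR = 0.00356, and below 0.05 in all 16 alternatives). Irf1 rose by 0.48 (limma FDR = 0.0404), a call lost in 10 of 16 alternatives, among them each fit without a FO B (Young) replicate and those without FO B (Aged) replicate 1 or 3. Without FO B (Aged) replicate 2, 4 genes of the pathway lists were called with age.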

How the data were processed

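RNA-seq was available for 9 libraries, 3 per group, grouped by their titles. One marker of the sort is not reported here. The authors deposited FPKM values for 24346 genes, made from SMART-Seq HT and Nextera libraries that do not mark strand. Reads were mapped to mm10 with TopHat and Bowtie2. The submitters' processing notes name TopHat2 2.1.1, Bowtie2 2.2.8 and Cuffdiff 2.2.1, while the methods of the study give other versions of TopHat and Bowtie2, so the version used is uncertain. The annotation and the scaling between libraries are not given in the sources used here.

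The test was limma (version 3.58.1, R 4.3.3; eBayes with a trend, Benjamini-Hochberg FDR) on log2(FPKM + 1), in the 6 libraries of a comparison, for genes averaging 1 FPKM or more. Single genes were tested with exact permutation tests. FPKM is not a count, so whole reads were recovered from the size of 1 read, within a tolerance of 0.01. This succeeded for 9591 of 15960 genes above 0 FPKM in at least 3 libraries. These reads were used only to describe depth, and counting error alone is not the error of a group. The limma script was tested on simulated data. Receptor genes and lists were chosen with earlier results of these data known. Beside all receptor genes, the text names from each list the called genes with the largest fold changes, genes of marker lists, and the 5 genes most like Il2rb. Csf2rb, Stat4, Il15ra, Il10rb, Tgfbr1, Tgfbr2, Bmpr2, Cish, Socs2, Il2, Il21, Cd79a and the kinases and STATs not called were named after their values were seen. Coordinates are from GENCODE M21 on GRCm38. Annotated genes overlap Il2ra, Il2rg, Il4ra, Il6ra and Il10ra, and their reads cannot be told apart from those of the receptors. Replicates were taken as 3 mice per group, after a legend of the study. The fits took the libraries as unpaired. Deviations of same-numbered FO B (Aged) and ABC libraries correlated at 0.0846, -0.0190 and 0.108. Such values mix in the noise of each library and cannot settle whether 1 aged mouse gave both. The alternatives changed the pseudocount (0.1 or 0.01), the filter (none, or at least 5 FPKM) and the scaling, and comprised quantile, TPM and upper-quartile scaling, no trend, all 9 libraries, the replicate number as a block, leaving out each library, and the thresholds of the study.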

Additional observations from a re-analysis of the deposited data

How the results depend on the processing

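Between ABCs and FO B (Aged), 8 receptor genes were called, and between 4 and 8 when 1 library was left out. With no filter on low values 5 were called, and 2 at the thresholds of the study, as also against FO B (Young), where the range without 1 library was again 4 to 8. The directions of the 9 fitted genes held in all alternatives for both comparisons. These genes were selected on the same values, and Il2rb reached the filter through its ABC level alone. The held directions are therefore a description and not support. Of 47 listed pathway genes tested, 21 were called, 13 higher and 8 lower. Of all genes, 19.4% were called higher and 16.5% lower. In 9 of the 21, 1 group had a mean below 1 FPKM, so their direction was fixed by the filter. The share of higher genes among the 21 was thus partly set by the filter. The listed pathway genes called numbered 10 (4 higher) with a filter of at least 5 FPKM. They numbered 0 at the thresholds of the study, and 16 to 23 without 1 library. With quantile normalization 50.0% of those called were higher in place of 61.9%. Among all genes 3739 were called, and 200 at the thresholds of the study.

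For age, the receptor genes called stayed at 0 in all alternatives. The listed pathway genes called went from 2 to 1 with no filter, scaling to TPM, no trend, all 9 libraries or the replicate block, to 0 at the thresholds of the study, and to between 1 and 4 without 1 library. Among all genes 47 were called, against 15 with no filter, 30 with no trend, 20 with all 9 libraries and 2 at the thresholds of the study. The range without 1 library was 19 to 69, with 21 and 23 without FO B (Young) replicates 1 and 2 and 19 without FO B (Aged) replicate 1. Differences near 0 changed sign without being called: Il2rg was 0.0448 with quantile normalization and -0.0618 to 0.0383 without 1 library, Il10ra was -0.0431 to 0.0799 without 1 library, and Ifngr1 was -0.0027 with quantile normalization and -0.0084 to 0.11 without 1 library. The causes were not tested.

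With the replicate number as a block, 6 receptor genes, 23 listed genes and 3448 of all genes were called between ABCs and FO B (Aged). For age, 37 of all genes were called. The labels do not say whether same-numbered aged libraries came from 1 mouse. For Il2rb, whose FO B level rests on 1 to 12 reads a library, the difference from FO B (Young) depended on the pseudocount, at 4.60 with 1, 6.48 with 0.1 and 7.13 with 0.01.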

Other observations

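Several receptor and ligand genes that were too low for the fit had their highest values in the ABC libraries. Il12rb2, the second chain of the interleukin-12 receptor, was at 1.60, 2.01 and 0.883 FPKM in ABCs, against at most 0.123 FPKM in FO B (Aged). Il7r, which pairs with the common gamma chain, was at 0.487, 0.441 and 0.161 FPKM in ABCs, against at most 0.202 FPKM in FO B (Aged). Il10, the ligand of the Il10ra product, was at 0.334, 1.82 and 0.885 FPKM in ABCs, and was listed at 0 in all 6 FO B libraries. Il6 was at 0, 0.505 and 3.04 FPKM in the 3 ABC libraries, with 11 reads in replicate 3, and at 0.515 FPKM in FO B (Young) replicate 1. These values were singled out after they were seen and were not tested.

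The genes whose levels most resembled those of Il5ra over the 9 libraries, among 10374 genes, were Neurl3, Rapgef4, Gimap1, Gimap6 and Btla, with Pearson's r of 0.995, 0.995, 0.995, 0.994 and 0.993. Neurl3 was at 3.49 ± 2.51 FPKM (SD, n = 3) in ABCs, against 78.1 ± 9.03 FPKM (SD, n = 3) in FO B (Aged). Btla, an inhibitory receptor of lymphocytes, was at 93.3 ± 17.5 and 166.9 ± 15.3 FPKM (SD, n = 3). As for Il2rb, this likeness mainly describes the step between ABCs and FO B cells.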
